A study of Homo sapiens with 9 samples.

Results

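The genes considered are MITF and the 9 pigmentation genes TYR, TYRP1, DCT, PMEL, MLANA, SLC45A2, OCA2, TRPM1 and RAB27A. They were taken by gene symbol, no measured value entering the rule although earlier results of these data were known, and all 10 were found among the 48162 genes of the deposited tables. RNA was sequenced from SKMEL28 cells, an established human melanoma line, in 9 libraries. The 3 groups of 3 libraries were shCont (a lentiviral hairpin against GFP, which these cells do not carry), shp16 (a hairpin against p16, the product of CDKN2A) and shp16/shATR (hairpins against p16 and against ATR, a kinase of the DNA damage response). All cells were grown in DMEM with 5% FBS and were selected with puromycin at 1 µg/ml for 3 days after infection. The libraries of a group are described as technical replicates of 1 experiment, so the p-values below measure the spread between these libraries and not between separate infections. Which ATR hairpin was used, and whether the shp16 cells were infected with any second virus, are not given in the sources used here, and only 1 cell line was sequenced.

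MITF is the transcription factor that directs the melanocyte lineage, and in melanoma it is known for switching on differentiation and survival genes. Melanin is made in melanosomes, organelles whose fibrils are built from PMEL and in which the enzymes TYR, TYRP1 and DCT convert tyrosine into pigment. MITF binds short E-box motifs near the starts of many of these genes, and its own melanocyte promoter responds to cAMP through CREB.

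Promoter windows of TYRP1, TRPM1, TYR, DCT and MITF are shown first. The letters CATGTG, an E-box bound by MITF, occur in genes that fell and in genes that did not pass the test. RefSeq windows from 250 bases before to 50 bases after an annotated start (assembly GRCh38.p14) were found for 8 of the 10 genes, 16 windows in all. No window was found for PMEL or for SLC45A2, a gene that fell. Capitals mark CATGTG on either strand, so that it may read CACATG, and in MITF the letters TGACGTCA, the CREB motif. Positions count from the start at 1, with the bases before it negative.
TYRP1, chr9:12693135-12693434, plus strand: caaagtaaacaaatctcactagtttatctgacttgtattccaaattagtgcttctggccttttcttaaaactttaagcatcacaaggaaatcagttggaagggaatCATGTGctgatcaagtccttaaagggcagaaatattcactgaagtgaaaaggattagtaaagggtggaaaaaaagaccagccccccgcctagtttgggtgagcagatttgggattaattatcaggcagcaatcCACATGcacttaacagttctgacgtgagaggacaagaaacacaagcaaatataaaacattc
TRPM1, chr15:31161111-31161410, minus strand: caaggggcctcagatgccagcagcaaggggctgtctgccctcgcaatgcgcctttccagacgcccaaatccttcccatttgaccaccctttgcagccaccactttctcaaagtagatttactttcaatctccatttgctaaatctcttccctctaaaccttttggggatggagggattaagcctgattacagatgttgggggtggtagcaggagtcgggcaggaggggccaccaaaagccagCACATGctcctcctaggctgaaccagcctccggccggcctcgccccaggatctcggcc
TYR, chr11:89177625-89177924, plus strand: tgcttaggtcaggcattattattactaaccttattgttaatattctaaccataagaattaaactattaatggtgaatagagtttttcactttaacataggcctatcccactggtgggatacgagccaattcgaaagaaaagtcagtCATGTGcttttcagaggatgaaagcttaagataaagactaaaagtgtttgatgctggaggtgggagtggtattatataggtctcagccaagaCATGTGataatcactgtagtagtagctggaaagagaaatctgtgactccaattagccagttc
DCT, chr13:94479633-94479932, minus strand: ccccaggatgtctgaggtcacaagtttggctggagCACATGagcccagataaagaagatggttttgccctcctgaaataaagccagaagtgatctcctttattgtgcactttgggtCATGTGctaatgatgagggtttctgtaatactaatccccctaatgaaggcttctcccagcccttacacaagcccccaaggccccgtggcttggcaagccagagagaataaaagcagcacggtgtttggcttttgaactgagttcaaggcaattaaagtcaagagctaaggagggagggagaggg
MITF, chr3:69936342-69936641, plus strand: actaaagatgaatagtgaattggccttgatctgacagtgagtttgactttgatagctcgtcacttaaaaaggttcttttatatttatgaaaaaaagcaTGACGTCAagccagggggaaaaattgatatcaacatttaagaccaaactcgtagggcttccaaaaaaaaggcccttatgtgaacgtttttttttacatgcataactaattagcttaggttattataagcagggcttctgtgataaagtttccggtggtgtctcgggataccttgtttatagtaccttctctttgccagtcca
CATGTG begins at −144 and −11 in TYRP1, at −104 and −12 in TYR, at −215 and −134 in DCT and at −8 in TRPM1. It was also present at −56 in the other TRPM1 window and at −153 in OCA2, which makes 6 of the 16 windows and 5 of the 8 genes. The windows of MITF, MLANA and RAB27A and the other DCT window, which is not shown, held no CATGTG. Among all 35116 windows of the table, 11.1% hold CATGTG. A gene with several windows has more chances of a match, and no share per gene was computed. The related E-box CACGTG was in none of the 16 windows and is in 7.26% of all windows. The MITF window shown is the most downstream of its 3 and has TGACGTCA at −152, which 1.85% of all windows hold. A match of letters is a description of these windows and says nothing about binding in these cells.

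Library totals were between 17314662 and 23588174 counts, and 15776 genes passed edgeR's filter on low counts, with all 10 genes among them. CDKN2A in shp16 was below shCont in all 3 libraries, at 90.5 ± 11.2 and 126 ± 31.7 CPM (TMM-normalized counts scaled to library size, mean ± SD, n = 3), but its log2 fold change of −0.48 did not pass the threshold (edgeR adjusted p = 0.0723). The CDKN2A values were 162.1, 112.5 and 103.1 CPM in shCont, highest in replicate 1, and 78.1, 93.5 and 99.9 CPM in shp16. These 2 groups were thus only narrowly apart. In shp16/shATR CDKN2A was at 85.0 ± 4.3 CPM and was called lower than in shCont (log2 fold change −0.57, SE 0.163, edgeR adjusted p = 0.0263). ATR was lower in shp16/shATR than in shp16, at 40.3 ± 0.637 and 87.5 ± 5.32 CPM (log2 fold change −1.12, SE 0.22, edgeR adjusted p = 0.0128). In shCont ATR was at 93.5 and 96.4 CPM in replicates 2 and 3 but at 46.0 CPM in replicate 1, near the 39.9 to 41.1 CPM of shp16/shATR. The lineage markers SOX10, S100B, PAX3, ERBB3 and CSPG4 were detected in every library, and their summed level was 2021 to 2379 CPM for shCont, 2205 to 2250 CPM for shp16 and 2521 to 2573 CPM for shp16/shATR. Replicate 1 of shCont and replicate 1 of shp16 stood apart from the other libraries of their groups, with chi-square values per degree of freedom of 61.1 and 74.5 in shCont against 4.75 between replicates 2 and 3, and of 33.7 and 33.0 in shp16 against 1.92. No batch is named in the labels, so results are given below with and without these 2 libraries, a choice made after the data were seen. Leaving out the libraries farthest from their groups lowers the spread, so p-values without them do not measure the spread of the whole groups.

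**Figure D1:**
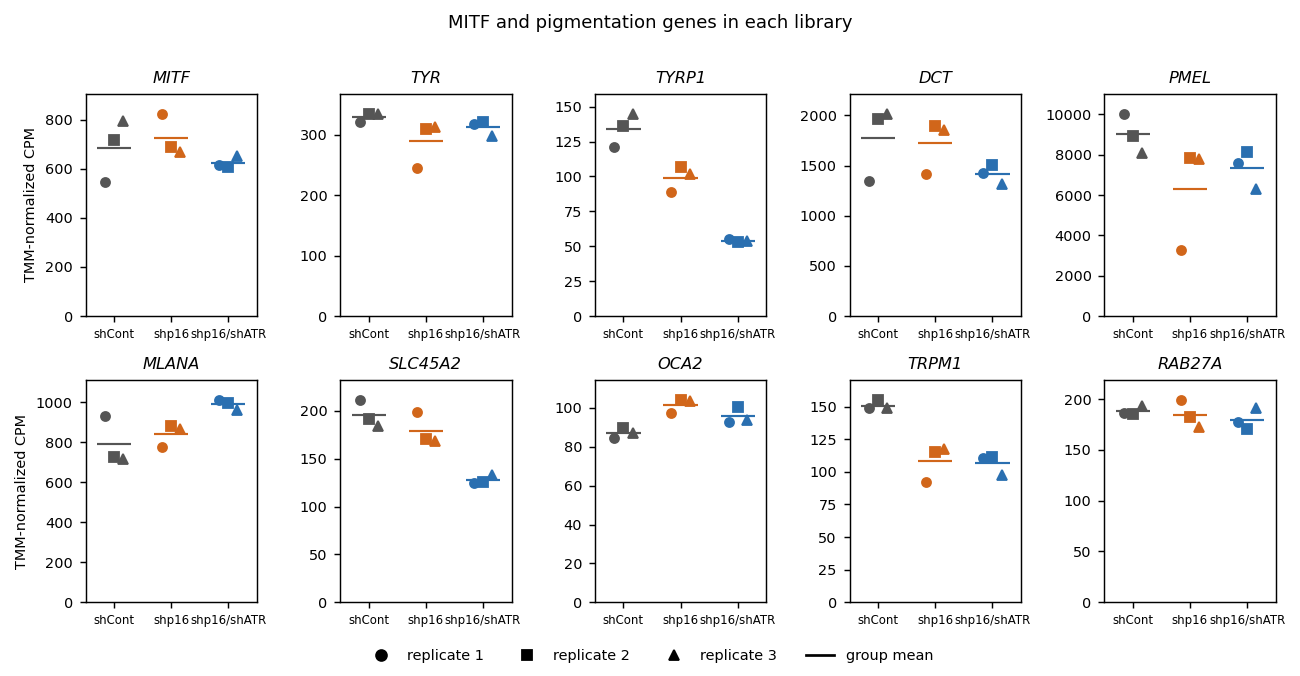
TMM-normalized CPM (vertical axis, from 0, a scale of its own in each panel) of the 10 genes in each of the 9 libraries. Symbols stand for replicates and lines for group means, and TYRP1 steps down from 121 to 145 CPM in shCont to 52.8 to 55.5 in shp16/shATR while MITF overlaps between shCont and the other groups.

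Levels are compared between genes in FPKM, which corrects for gene length. Over all 9 libraries PMEL, the fibril protein, had the highest mean at 2747 ± 709 FPKM (SD, n = 9), and every gene of the set was above the 93rd percentile of all genes. MLANA, a melanosome protein and melanoma antigen, had 361 ± 46.7 FPKM and DCT, the dopachrome tautomerase, 360 ± 71.9. These 2 changed places between groups, with overlapping libraries in shCont and shp16, whereas in shp16/shATR MLANA (390 to 419 FPKM) lay above DCT (283 to 335 FPKM). MITF followed at 141 ± 18.3 FPKM, and TYR, the rate-limiting enzyme of melanin synthesis, at 125 ± 13.7, with overlapping libraries in shCont and shp16/shATR but not in shp16.

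The lower part of the order depended on the group. In shCont it ran from SLC45A2 (72.0 ± 3.24 FPKM, SD, n = 3), a melanosome transporter, through RAB27A (54.5 ± 2.54), the GTPase that ties melanosomes to their transport machinery, and TYRP1 (47.1 ± 5.64), to OCA2 (27.5 ± 1.85), a melanosome chloride channel, and TRPM1 (26.4 ± 1.61), a cation channel. The libraries of neighbours in that order did not overlap except for OCA2 and TRPM1. In shp16/shATR RAB27A (51.9 ± 2.10 FPKM) came before SLC45A2 (46.9 ± 1.03), and OCA2 (30.1 ± 1.75) before TYRP1 (18.9 ± 0.521), which overlapped TRPM1 (18.7 ± 1.64). In shp16 the order was that of shCont, but TYRP1 (34.8 ± 4.95 FPKM) then overlapped OCA2 (31.9 ± 2.79) and TRPM1 (18.9 ± 3.33) stood below both.

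MITF (ENSG00000187098, chromosome 3 from 69788586 to 70017488, here and below as deposited, taken to be GRCh37) did not pass the test in any comparison of all 9 libraries. Its level was 545, 716 and 794 CPM in shCont, 824, 689 and 669 CPM in shp16, and 614, 606 and 654 CPM in shp16/shATR. The lowest and the highest of the 9 values were both in replicate 1, of shCont and of shp16, and the shCont range enclosed all 3 shp16/shATR libraries and 2 of the 3 shp16 libraries, while all 3 shp16/shATR libraries lay below the 3 of shp16. The log2 fold change was 0.09 in shp16 against shCont (95% interval −0.23 to 0.40, edgeR adjusted p = 0.737), −0.22 in shp16/shATR against shp16 (−0.53 to 0.10, adjusted p = 0.446) and −0.13 in shp16/shATR against shCont (−0.45 to 0.18, adjusted p = 0.551). Without both replicate 1 libraries MITF had a mean of 755 CPM in shCont, of 679 CPM in shp16 and of 625 CPM in shp16/shATR, and MITF was then lower in shp16/shATR than in shCont (log2 fold change −0.28, SE 0.0543, edgeR adjusted p = 0.000313). The SE with all 9 libraries was 0.144, and the smaller fit called 44.3% of all genes in this comparison. Transcripts from the separate MITF promoters, the melanocyte one included, are summed in all MITF values above.

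Among the melanin enzymes, TYRP1, which stabilizes TYR and acts in the synthesis of eumelanin, was the only one called in the model of all 9 libraries. TYRP1 (ENSG00000107165, chromosome 9 from 12685439 to 12710290) had 121, 136 and 145 CPM in shCont, 88.6, 107 and 102 CPM in shp16, and 55.5, 52.8 and 53.6 CPM in shp16/shATR. None of the 3 groups overlapped another, and the highest shp16/shATR library was below the lowest of the shp16 libraries. TYRP1 fell by 0.43 on the log2 scale in shp16 against shCont (SE 0.11, edgeR adjusted p = 0.0229), by 0.88 in shp16/shATR against shp16 (SE 0.112, adjusted p = 0.0014) and by 1.31 in shp16/shATR against shCont (SE 0.112, adjusted p = 1.41e-05). The first of these falls was close to the threshold. It lost its call without shCont replicate 2 (log2 fold change −0.42, adjusted p = 0.0652), shCont replicate 3 (−0.37, 0.0617), shp16 replicate 1 (−0.36, 0.0768) or shp16 replicate 3 (−0.45, 0.0685), whereas the other falls kept their calls in each of the 19 alternatives.

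TYR and DCT did not pass the test with all 9 libraries. TYR (ENSG00000077498, chromosome 11 from 88910620 to 89028927) had 321, 335 and 334 CPM in shCont, 245, 310 and 314 CPM in shp16, and 318, 321 and 298 CPM in shp16/shATR. All 3 shp16 libraries were below shCont, by a wide margin in replicate 1, while shp16/shATR overlapped both other groups. The log2 fold change of TYR was −0.19 in shp16 against shCont (95% interval −0.44 to 0.06, edgeR adjusted p = 0.299), 0.11 in shp16/shATR against shp16 (adjusted p = 0.66) and −0.08 in shp16/shATR against shCont (adjusted p = 0.664).

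DCT (ENSG00000080166, chromosome 13 from 95089558 to 95131936) had 1351, 1962 and 2017 CPM in shCont, 1417, 1895 and 1850 CPM in shp16, and 1423, 1507 and 1317 CPM in shp16/shATR. Replicate 1 of shCont and replicate 1 of shp16 lay at the level of the shp16/shATR libraries, and the groups overlapped. The log2 fold change of DCT was −0.05 in shp16 against shCont (edgeR adjusted p = 0.886), −0.28 in shp16/shATR against shp16 (95% interval −0.65 to 0.09, adjusted p = 0.39) and −0.33 in shp16/shATR against shCont (−0.69 to 0.04, adjusted p = 0.186). Without shCont replicate 1 the last was −0.50 (adjusted p = 0.0065), and without both replicate 1 libraries DCT was also lower in shp16/shATR than in shp16 (−0.41, SE 0.0547, edgeR adjusted p = 1.55e-05).

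Of the structural proteins, PMEL varied most between libraries of 1 group. PMEL (ENSG00000185664, chromosome 12 from 56347889 to 56367101) had 10030, 8940 and 8075 CPM in shCont, 3258, 7839 and 7763 CPM in shp16, and 7606, 8124 and 6300 CPM in shp16/shATR. Replicate 1 of shp16 was 2.41-fold below replicate 2 of the same group, and all 3 shp16 libraries were below all 3 shCont libraries. PMEL alone took between 0.619% and 0.962% of all counts in the other 8 libraries, where it ranked between the 2nd and the 5th gene by counts, and 0.306% in shp16 replicate 1, where it ranked 17th. The log2 fold change in shp16 against shCont was −0.52 (SE 0.27, edgeR adjusted p = 0.225), and it was −0.21 without shp16 replicate 1 (adjusted p = 0.372) and −0.50 with no filter on low counts (adjusted p = 0.00326). In shp16/shATR it was 0.22 against shp16 (adjusted p = 0.715) and −0.30 against shCont (adjusted p = 0.468). Without both replicate 1 libraries the value against shp16 was −0.09, and PMEL was then lower in shp16/shATR than in shCont (−0.22, adjusted p = 0.0251). PMEL overlaps CDK2 on the opposite strand, with 1392531 counts for PMEL and 47520 for CDK2 over the 9 libraries, and whether counting used strand is not given in the sources used here.

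MLANA (ENSG00000120215, chromosome 9 from 5890802 to 5910606) was the gene of the set whose values lay highest in shp16/shATR relative to shCont. It had 929, 728 and 717 CPM in shCont, 773, 879 and 866 CPM in shp16, and 1010, 993 and 960 CPM in shp16/shATR. Every shp16/shATR library was above every library of the other groups, with shCont replicate 1 the nearest to them. The log2 fold change was 0.08 in shp16 against shCont (edgeR adjusted p = 0.697), 0.24 in shp16/shATR against shp16 (adjusted p = 0.325) and 0.32 in shp16/shATR against shCont (95% interval 0.05 to 0.59, adjusted p = 0.0842), none past the threshold. Without shCont replicate 1 MLANA was higher in shp16/shATR than in shCont by 0.45 (adjusted p = 0.00134) and than in shp16 by 0.24 (adjusted p = 0.0387). DESeq2 called it higher than in shCont with all 9 libraries (0.33, adjusted p = 0.0411).

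Of the membrane transporters and channels, SLC45A2 was called in both comparisons of shp16/shATR and TRPM1 in both comparisons with shCont, and the difference between these patterns was not tested. SLC45A2 (ENSG00000164175, chromosome 5 from 33944721 to 33984835), which sets melanosome pH and tyrosinase activity, had 212, 192 and 185 CPM in shCont, 199, 171 and 168 CPM in shp16, and 125.0, 125 and 133 CPM in shp16/shATR. The shp16 libraries overlapped those of shCont, and all 3 shp16/shATR libraries lay below both groups. SLC45A2 fell by 0.49 in shp16/shATR against shp16 (SE 0.107, edgeR adjusted p = 0.0208) and by 0.62 against shCont (SE 0.107, adjusted p = 0.00165), and its log2 fold change was −0.13 in shp16 against shCont (adjusted p = 0.462). The call against shp16 was lost on leaving out any 1 library of these 2 groups, with log2 fold changes of −0.41, −0.53 and −0.54 without shp16 replicates 1, 2 and 3 (adjusted p = 0.0589, 0.06 and 0.0548) and of −0.47, −0.48 and −0.52 without shp16/shATR replicates 1, 2 and 3 (adjusted p = 0.126, 0.112 and 0.0735). The fall against shCont kept its call in all 19 alternatives.

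TRPM1 (ENSG00000134160, chromosome 15 from 31293264 to 31453476) had 149, 155 and 149 CPM in shCont, 92.0, 115 and 117 CPM in shp16, and 111, 111 and 97.6 CPM in shp16/shATR. Every library with the p16 hairpin was below every shCont library, and the shp16 and shp16/shATR libraries overlapped. TRPM1 fell by 0.48 in shp16 against shCont (SE 0.116, edgeR adjusted p = 0.0182) and by 0.50 in shp16/shATR against shCont (SE 0.116, adjusted p = 0.00904). The log2 fold change in shp16/shATR against shp16 was −0.02, with a 95% interval from −0.27 to 0.23 (adjusted p = 0.951). The fall in shp16 lost its call without shCont replicate 2 (−0.46, adjusted p = 0.0568) or shp16 replicate 1 (−0.37, adjusted p = 0.0519), and that in shp16/shATR without shp16/shATR replicate 3 (−0.44, adjusted p = 0.0551).

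OCA2 and RAB27A stayed within narrow ranges. OCA2 (ENSG00000104044, chromosome 15 from 28000021 to 28344504) had 84.7, 89.7 and 87.2 CPM in shCont, 97.3, 104 and 104 CPM in shp16, and 92.9, 101 and 93.8 CPM in shp16/shATR. Every library with the p16 hairpin was above every shCont library, but the log2 fold changes of 0.22 in shp16 (95% interval 0.02 to 0.43, edgeR adjusted p = 0.137) and 0.14 in shp16/shATR (adjusted p = 0.33) against shCont did not pass the threshold. RAB27A (ENSG00000069974, chromosome 15 from 55495164 to 55611311) was between 171 and 199 CPM in the 9 libraries, with log2 fold changes of −0.03, −0.04 and −0.07 in the 3 comparisons, and its 95% intervals together ran from −0.28 to 0.19.

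**Figure D2:**
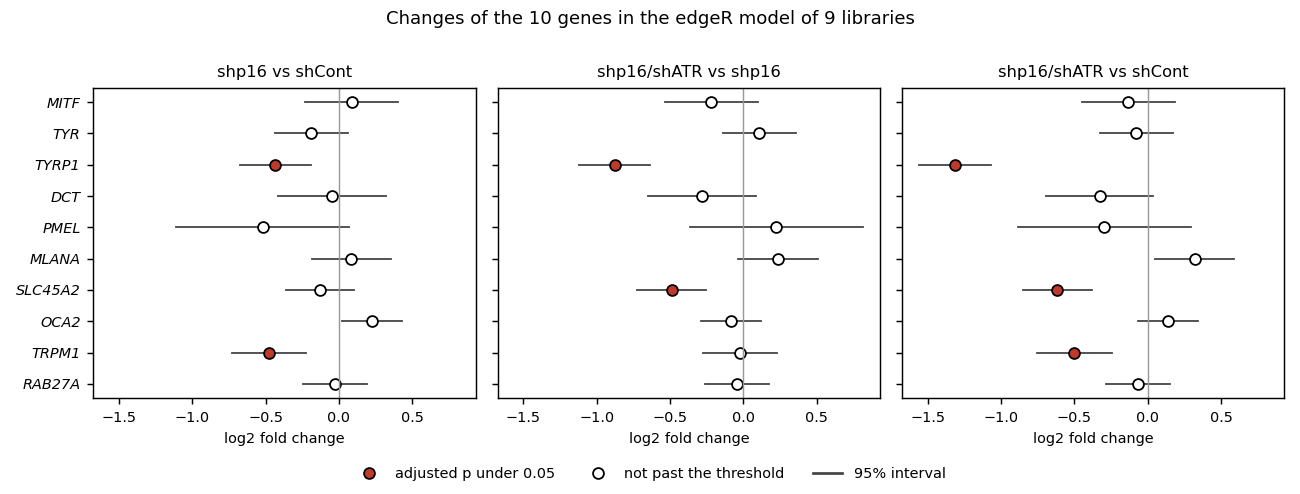
Log2 fold changes (horizontal axis, edgeR) of the 10 genes in the 3 comparisons, with 95% intervals as lines and filled points for an adjusted p under 0.05. TYRP1 is filled in all 3 panels, TRPM1 in both comparisons with shCont, and SLC45A2 in both comparisons of shp16/shATR, and every filled point is below 0.

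Counted over the set, 2 of 10 genes were called in shp16 against shCont, 2 in shp16/shATR against shp16 and 3 in shp16/shATR against shCont, all of them lower. Among all 15776 genes tested, 14.8%, 6.22% and 23.6% were called in these comparisons (7.23%, 2.73% and 10.9% higher and 7.59%, 3.49% and 12.7% lower), beside 20%, 20% and 30% of the 10 genes. The members' shares rest on 2, 2 and 3 genes, and nothing particular to the set is read from them in any comparison. In shp16/shATR against shp16 the 2 genes were TYRP1 and SLC45A2, and the SLC45A2 call was lost on leaving out any 1 library of these 2 groups. The count of 0 called higher by edgeR went with 1, 0 and 1 genes higher at an unadjusted p under 0.05, and with 0, 0 and 1 called higher by DESeq2 and 0, 0 and 0 by limma on log2 FPKM. The median log2 fold change of the 10 genes was −0.09, −0.06 and −0.21, against −0.02, 0.0021 and −0.02 over all genes tested. The libraries of the compared groups did not overlap for 5, 4 and 5 of the 10 genes, and for 33.6%, 37.7% and 41.5% of all genes. In bulk RNA, fewer cells with high expression and less RNA per cell cannot be told apart. The comparisons share groups (shCont in 2 of them, shp16 in 2 and shp16/shATR in 2), so their counts are not independent of each other.

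Leaving out both replicate 1 libraries changed the counts more than any other alternative. The called genes were then 5 in shp16 against shCont (MLANA 0.27 and OCA2 0.23 higher, TYRP1 −0.43, TRPM1 −0.39 and SLC45A2 −0.15 lower), 4 in shp16/shATR against shp16 (MLANA 0.17 higher, TYRP1 −0.96, SLC45A2 −0.41 and DCT −0.41 lower) and 7 in shp16/shATR against shCont. The last were MLANA (0.44) higher and MITF (−0.28), TYRP1 (−1.39), DCT (−0.50), PMEL (−0.22), SLC45A2 (−0.57) and TRPM1 (−0.52) lower. The share of all genes called also rose, to 32.7%, 26.7% and 44.3% of 16104 genes.

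**Figure D3:**
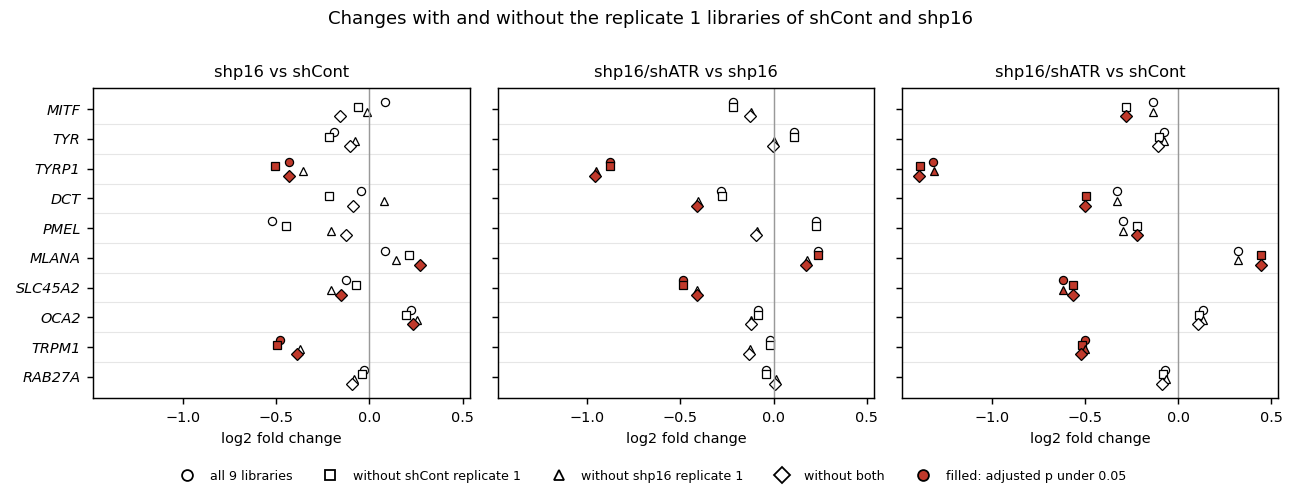
Log2 fold changes (horizontal axis, edgeR) of the 10 genes in the 3 comparisons, with all 9 libraries, without each of the replicate 1 libraries in turn and without both (symbols), filled for an adjusted p under 0.05. PMEL moves from −0.52 to −0.13 in shp16 against shCont when both are left out, while TYRP1 stays between −1.31 and −1.39 in shp16/shATR against shCont.

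Within a group, the 10 genes did not share 1 direction in the libraries that stood apart. In shp16 replicate 1, PMEL, TYR, DCT, TYRP1, TRPM1, MLANA and OCA2 were at the lowest of the 3 shp16 values, while MITF, SLC45A2 and RAB27A were at the highest. In shCont replicate 1, MITF, DCT, TYR, TYRP1 and OCA2 were at the lowest of the 3 values and PMEL, MLANA and SLC45A2 at the highest. The 10 genes together took 0.675% of the counts of shp16 replicate 1 and between 0.992% and 1.40% in the other libraries.

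The genes whose pattern over the 9 libraries was most like that of MITF were MTMR12, RPRD2, SWAP70, CTNND1 and RNGTT, by the smallest root mean square difference of centred log2 CPM among 10736 genes with a mean of at least 5 CPM (0.034, 0.042, 0.045, 0.046 and 0.046). SWAP70, for example, had 218, 315 and 336 CPM in shCont, 351, 298 and 292 CPM in shp16, and 251, 252 and 268 CPM in shp16/shATR, low in shCont replicate 1 and high in shp16 replicate 1 as MITF was. Of the other pigmentation genes RAB27A had the smallest difference from MITF (0.147, place 794), followed by OCA2 (0.194), DCT (0.218), TYR (0.26), SLC45A2 (0.272), TRPM1 (0.332) and MLANA (0.339). TYRP1 (0.513, place 10002) and PMEL (0.57, place 10253) had the largest. A gene that varies little also has a small difference, and RAB27A was between 171 and 199 CPM, so these places do not show a shared pattern. In shp16 replicate 1 OCA2 and DCT were at the lowest value of their group, where MITF was at the highest. The 9 points include the libraries that stood apart, and the likeness is a description with no test.

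Genes that act on MITF, or belong to the same organelle, were followed in lists. Of 10 listed MITF regulators 9 were tested, of which 1 was called higher and 0 lower in shp16 against shCont, 1 higher and 0 lower in shp16/shATR against shp16, and 2 and 1 in shp16/shATR against shCont, with medians of 0.03, −0.0013 and 0.19. The calls are 11.1%, 11.1% and 33.3% of the 9 genes beside 14.8%, 6.22% and 23.6% of all genes, and no difference from all genes is read from these counts or from those of the lists below. EDNRB, the endothelin receptor of melanocytes, rose by 0.51 in shp16 (edgeR adjusted p = 0.00643) and by 0.36 in shp16/shATR (adjusted p = 0.0253) against shCont. PAX3, a transcription factor that binds the MITF promoter, rose in shp16/shATR by 0.62 against shp16 (adjusted p = 0.00507) and by 0.47 against shCont (adjusted p = 0.00652), and USF1, a factor that binds E-boxes, fell by 0.47 against shCont (adjusted p = 0.0269). SOX10, the main activator of MITF, was between 816 and 989 CPM in all 9 libraries, with log2 fold changes of 0.03, −0.09 and −0.06 (adjusted p = 0.907, 0.729 and 0.727). At an unadjusted p under 0.05 the regulators gave 1 lower and 0 lower in the first 2 comparisons, and DESeq2 and limma called 0 lower in both. Without both replicate 1 libraries the regulators called were 2 higher and 4 lower, 3 higher and 0 lower, and 3 higher and 2 lower, in a fit that called 32.7%, 26.7% and 44.3% of all genes.

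Of 27 other melanosome genes, all tested, 0 were called higher and 4 lower in shp16 against shCont, 0 higher and 1 lower in shp16/shATR against shp16, and 1 and 6 in shp16/shATR against shCont, with medians of −0.09, 0.03 and 0.01. These are 14.8%, 3.70% and 25.9% of the list, close to the 14.8%, 6.22% and 23.6% of all genes. MLPH, melanophilin, which RAB27A recruits to melanosomes, was at 409 CPM in shp16 and 757 CPM in shCont (log2 fold change −0.89, SE 0.154, edgeR adjusted p = 0.00277). RAB38, a GTPase that carries TYR and TYRP1 to melanosomes, fell by 0.48 in shp16/shATR against shp16 (adjusted p = 0.0221) and by 0.57 against shCont (adjusted p = 0.00252). TPCN2, a cation channel of melanosomes, fell by 0.44 in shp16 (adjusted p = 0.0424) and by 0.79 in shp16/shATR (adjusted p = 0.0012) against shCont. BLOC1S4, a subunit of the complex that sorts melanosome cargo, rose by 0.88 in shp16/shATR against shCont (adjusted p = 0.00482). The 0 genes called higher by edgeR in the first 2 comparisons were also 0 by DESeq2 and limma, with 1 and 2 higher at an unadjusted p under 0.05. Without both replicate 1 libraries 3 were called higher and 8 lower, 6 higher and 5 lower, and 7 higher and 9 lower, again beside 32.7%, 26.7% and 44.3% of all genes.

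Of 17 MITF targets outside pigmentation, 3 were called higher and 3 lower in shp16 against shCont, and 3 higher and 2 lower in shp16/shATR against shCont, with medians of 0.08 and −0.08. These are 35.3% and 29.4% of the list beside 14.8% and 23.6% of all genes, among which calls were also made in both directions. MET, a receptor tyrosine kinase, rose by 1.12 in shp16 (edgeR adjusted p = 0.00198) and by 0.70 in shp16/shATR (adjusted p = 0.016) against shCont, and CAPN3, a protease, rose by 1.05 (adjusted p = 0.00781) and 1.28 (adjusted p = 0.00144). BCL2A1, an inhibitor of apoptosis, fell by 0.92 (adjusted p = 0.000432) and 0.72 (adjusted p = 0.00131), and HIF1A, the hypoxia factor, fell by 0.84 (adjusted p = 0.00199) and 1.06 (adjusted p = 0.000269). In shp16/shATR against shp16 edgeR, DESeq2 and limma called 0 of the 17 in either direction, and 0 were higher and 4 lower at an unadjusted p under 0.05 in edgeR (median −0.09). Among all genes edgeR called 6.22% in this comparison. Without both replicate 1 libraries the calls over this list were 5 higher and 3 lower, 3 higher and 5 lower, and 4 higher and 7 lower in the 3 comparisons, where 32.7%, 26.7% and 44.3% of all genes were called.

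**Figure D4:**
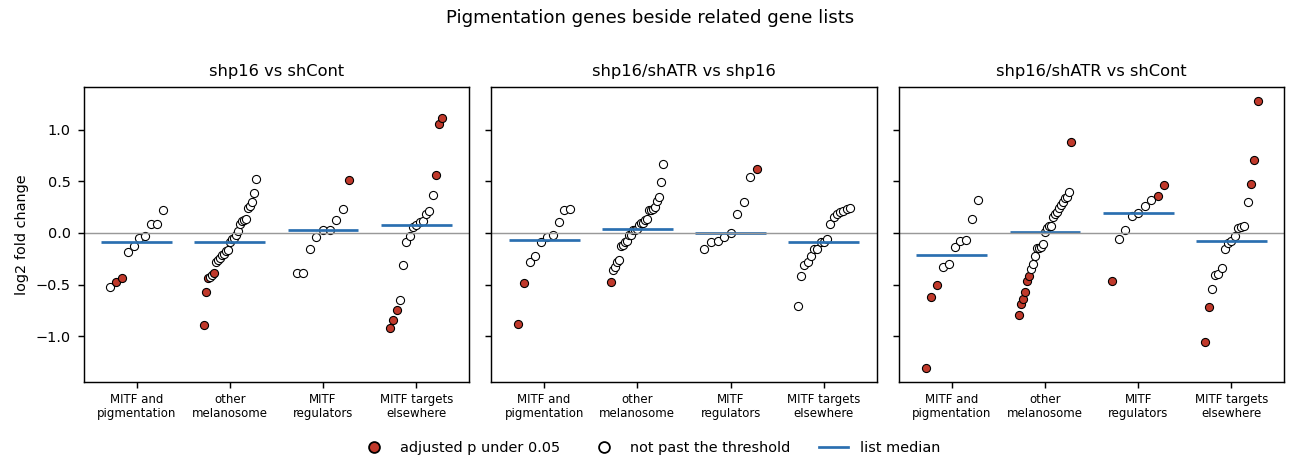
Log2 fold changes (vertical axis, edgeR) of the 10 genes and of 3 related lists in the 3 comparisons, with 1 point per gene, filled for an adjusted p under 0.05, and lines for list medians. The medians lie between −0.21 and 0.19, and filled points appear on both sides of 0 for the MITF targets outside pigmentation in the comparisons with shCont.

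Markers of lineage and of other cell types moved with some of these groups. Of the 5 lineage markers, 2 were called higher and 1 lower in shp16 against shCont, 3 higher and 0 lower in shp16/shATR against shp16, and 3 and 0 in shp16/shATR against shCont, where 14.8%, 6.22% and 23.6% of all genes were called. ERBB3, a receptor of the neural crest lineage, rose in all 3 (0.44, 0.60 and 1.04, edgeR adjusted p = 0.0132, 0.0051 and 3.22e-05), CSPG4, a melanoma proteoglycan, rose against shCont by 0.62 in shp16 (adjusted p = 0.00191) and by 0.64 in shp16/shATR (adjusted p = 0.000892), and S100B fell by 0.68 in shp16 against shCont (adjusted p = 0.013) and rose by 0.67 in shp16/shATR against shp16 (adjusted p = 0.0254). SOX10 and PAX3 are also among the MITF regulators above, so the PAX3 rises in shp16/shATR are counted in both lists. Without both replicate 1 libraries the lineage markers called were 3 higher and 2 lower, 3 higher and 0 lower, and 4 higher and 0 lower. That fit called 32.7%, 26.7% and 44.3% of all genes. Of 12 markers of other cell types, 11 were analysed here, with a summed level between 34.8 and 60.2 CPM in the 9 libraries, of which LUM gave 26.0 to 42.9 CPM. The leukocyte markers PTPRC and CD3E were at 0 in every library.

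Of the 4 keratinocyte genes, KRT5, KRT14 and KRT1 were called higher in shp16 and in shp16/shATR than in shCont by edgeR, and DSG3 was not called in any comparison, with means of 1.76 CPM in shCont, 1.98 CPM in shp16 and 1.71 CPM in shp16/shATR. KRT5 and KRT1 had 0 counts in all 3 shCont libraries, where 3 counts over the group would be 0.0483 CPM, and KRT14 had 3 counts in 1 of them. In shp16 they were at 2.03 to 2.99 CPM (KRT5), 2.09 to 2.96 CPM (KRT14) and 2.05 to 9.82 CPM (KRT1), and in shp16/shATR at 0.359 to 2.25 CPM (KRT5), 1.13 to 2.77 CPM (KRT14) and 1.33 to 4.15 CPM (KRT1). DCN, a fibroblast gene, was called higher in shp16/shATR than in shCont (edgeR adjusted p = 0.0266), at 0.519 to 0.974 CPM and 0.0884 to 0.308 CPM. These levels rest on 9 to 21 and 2 to 6 counts per library. Of the markers of other cell types, edgeR and DESeq2 each called 4 higher in this comparison and limma on log2(FPKM + 1) called 3. Among all genes edgeR called 23.6% there. The 3 keratins were called in the comparisons with shCont, in which TYRP1 and TRPM1 fell, and their part in those falls was not tested.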

How the data were processed

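Expression was measured by RNA sequencing in 9 libraries of SKMEL28 cells, 3 per group. RNA was extracted with Trizol and libraries were prepared with a NEBNext Ultra II kit and sequenced at Novogene. The submitters' processing notes name STAR 2.6.1, DESeq2 and GRCh38. The counting program, annotation release and strand setting are not given in the sources used here. Gene coordinates were printed as deposited. They equal those of GRCh38 (GENCODE 29) for 248 of 45342 shared genes and were taken to be GRCh37, while promoter windows are from RefSeq on GRCh38.p14.

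The authors deposited raw read counts per gene without normalization. They also deposited FPKM values, which equal the counts scaled by gene length and library total (largest relative difference 4.22e-07). The 3 shp16/shATR count columns share a name and were told apart through the FPKM columns.

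From the counts, the quasi-likelihood test of edgeR 4.0.16 (R 4.3.3; TMM, filterByExpr, 15776 genes, all 9 libraries, 1 coefficient per group) was applied at a Benjamini-Hochberg adjusted p of 0.05. The 95% intervals are the log2 fold change with its standard error and the fit's t quantile. Alternatives were DESeq2 1.42.0, limma 3.58.1 on log2 FPKM with 1 or 0.1 added, upper-quartile factors, library size only, no filter, at least 10 counts in every library, only the groups compared, a replicate block and each library left out in turn. Leaving out shCont replicate 1 and shp16 replicate 1 together was added after seeing the data. The procedure was tested on simulated data in which no library stood apart, so that test does not cover the replicate 1 libraries seen here.

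The 10 genes and all lists were chosen with earlier results of these data known. Named from the other lists were, in each comparison, the 2 called genes per direction with the lowest adjusted p, and also SOX10, S100B, KRT1, DSG3, DCN, LUM, PTPRC and CD3E, chosen after their values were seen. The MiT/TFE family was named in full, TFE3 and TFEC outside this rule. The 5 genes most like MITF were named, and CDKN2A and ATR as checks of the hairpins. No 2 replicates agreed within sampling noise (chi-square per degree of freedom of at least 1.92), so each was counted as 1 library. The list of lineage markers was printed without a gene that is not reported here.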

Additional observations from a re-analysis of the deposited data

How the results depend on the processing

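With each of the 9 libraries left out in turn, the number of the 10 genes called was 0 to 2 in shp16 against shCont, 1 to 3 in shp16/shATR against shp16 and 2 to 5 in shp16/shATR against shCont, where the whole set of libraries gave 2, 2 and 3. The count of 0 came without shCont replicate 2 and without shp16 replicate 1, and edgeR then had 0 and 1 genes higher and 2 and 2 lower at an unadjusted p under 0.05. The 5 calls came without shCont replicate 1, where 33.3% of all genes were called in that comparison in place of 23.6%. Without shp16 replicate 1, 8.95% of all genes were called in shp16 against shCont in place of 14.8%. A fit of only the groups compared called 0 in shp16 against shCont (0 higher and 2 lower at an unadjusted p under 0.05), where TYRP1 had an adjusted p of 0.0883 and TRPM1 of 0.0656. With no filter on low counts the count in shp16 against shCont was 3 (PMEL added). DESeq2 called 2, 2 and 4 and limma on log2(FPKM + 1) called 2, 2 and 3. Leaving out shCont replicate 1 and shp16 replicate 1 together gave 5, 4 and 7. The causes of these differences were not tested. Of 570 values of single genes under the 19 alternatives, 541 stayed on the same side of the threshold, 15 lost a call, 14 gained one and 0 called values reversed. Some fold changes that were never called did change sign. Examples are MITF in shp16 against shCont (−0.16 to 0.21) and PMEL in shp16/shATR against shp16 (−0.09 to 0.41).

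The replicate numbers were not taken as pairs in the main fit. The correlations of same-numbered deviations were −0.07, 0.01 and −0.08 in shp16 against shCont, followed by −0.04, 0.16 and −0.13 in shp16/shATR against shp16, and 0.03, 0.04 and 0.07 in shp16/shATR against shCont. Those of differently numbered libraries ran from −0.20 to 0.22. Such correlations cannot show whether samples were prepared in pairs. A fit with the replicate block called 2, 2 and 3 of the 10 genes. Depth does not limit these genes, whose lowest level is 52.8 CPM, but the 3 libraries per group come from 1 experiment.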

Other observations

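The relatives of MITF in the MiT/TFE family of transcription factors, which control lysosome genes, were at low levels beside it. TFE3 was between 44.1 and 60.8 CPM in the 9 libraries and was not called in any comparison by the edgeR fit of all 9 libraries. TFEB had 1.37, 1.34 and 0.849 CPM in shCont, 1.40, 1.57 and 1.27 CPM in shp16, and 2.54, 2.38 and 3.18 CPM in shp16/shATR, and all 3 shp16/shATR libraries lay above the other 6. TFEB was higher in shp16/shATR than in shCont by 1.18 on the log2 scale (SE 0.265, edgeR adjusted p = 0.00765), from 17 to 31 counts per shCont library and 44 to 62 per shp16/shATR library. In shp16/shATR against shp16 the TFEB log2 fold change of 0.93 did not pass the threshold (SE 0.26, edgeR adjusted p = 0.0575). There limma on log2(FPKM + 1) called 1 of the 2 tested genes higher. Without both replicate 1 libraries TFE3 and TFEB were both called higher in shp16/shATR than in shp16 and than in shCont. That fit called 26.7% and 44.3% of all genes in these comparisons. TFEC had between 0 and 4 counts in each library and was not tested.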
